A study of Nannochloropsis oceanica with 18 samples.

Results

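Fatty acid desaturases and elongases of Nannochloropsis oceanica IMET1, a marine oleaginous microalga, were followed while cultures were moved to very low CO2. The family was taken as every gene whose deposited annotation names a fatty acid desaturase, a numbered delta desaturase or a fatty acid elongase. This gave 20 of the 9756 genes in the tables, 10 desaturases and 10 elongases, and among them are g1678, g4967 and g5641. The annotations are the submitters' own, and no enzyme of this set was assayed here.

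Cells of strain IMET1 were grown under continuous light with 5% CO2, washed, re-inoculated into fresh medium and kept at 5% CO2 for 1 h, and then either moved to 0.01% CO2 (VLC, very low carbon) or left at 5% CO2 (HC, high carbon). Poly(A) RNA was sequenced from VLC and from HC cultures at 3, 6, 12 and 24 h, and from cultures taken at 0 h, just before the split. Each of the 9 groups has 2 libraries from separate cultures, 18 in all, and both arms share the 0 h libraries. The study drew its samples from the same culture columns at successive times. Libraries of different times are therefore not independent, though every test here treated them as if they were. Levels are FPKM, fragments scaled to transcript length and to the mapped total of the library, and the submitters' tables hold no read counts. They are shares of a library, so a shift of the rest of the pool can enter any comparison between libraries. In what follows a log2 change is a difference of log2(FPKM + 1), which understates the change of genes at a few FPKM, and a gene is said to be called when limma gave an adjusted p of 0.05 or less and the change was at least 2-fold. A gene was tested in a comparison when its mean was 10 FPKM or more in either group. The elongase g2536 never was, as it stayed between 0.197 and 4.54 FPKM in all 18 libraries, so at most 19 of the 20 members entered any test. With no FPKM minimum g2536 was called lower than at 0 h in VLC cultures at 12 and 24 h and in HC cultures at 6 and 24 h.

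Desaturases place double bonds into fatty acid chains, and the delta number in an enzyme's name gives the position of the bond counted from the carboxyl end. Elongases of this kind catalyse the first, condensing step of the cycle that lengthens an acyl-CoA. In Nannochloropsis, desaturation and elongation in alternation lead to eicosapentaenoic acid, a long-chain polyunsaturated fatty acid found mainly in its membrane lipids. Front-end desaturases such as the delta-6, delta-5 and delta-4 enzymes insert a bond between an existing one and the carboxyl group.

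Transcripts of the desaturases were the more abundant of the family at 0 h. Their summed level was 5008 and 5420 FPKM in the 0 h libraries, while the elongases summed to 1208 and 1195 FPKM. The leading members at 0 h were g7956 (mean 1496 FPKM) and g7957 (985 FPKM), both annotated only as fatty acid desaturase, then g4967 (836 FPKM, the same annotation), the delta-6 desaturase g4033 (762 FPKM), the delta 5 desaturase g2747 (667 FPKM) and the long chain fatty acid elongase g9499 (575 FPKM). The 20 members together took 0.267% to 0.508% of all FPKM in the 16 later libraries, against 0.912% and 0.951% in the 0 h libraries.

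Most of the family was lower than at 0 h in both arms. In VLC cultures 8 of 19 members tested were called lower at 3 h (4.87% of all genes tested were), 13 at 6 h (16.5%), 11 at 12 h (15.6%) and 10 at 24 h (14.8%). In HC cultures the counts were 5 of 19 at 3 h (3.71% of all genes tested), 11 at 6 h (15.7%), 11 at 12 h (36.4%) and 10 at 24 h (11.3%). Members called higher than at 0 h numbered 0, 1, 3 and 2 in VLC cultures at 3, 6, 12 and 24 h (all genes 9.95%, 21.1%, 28.8% and 20.8%) and 0, 1, 3 and 0 in HC cultures (8.18%, 20.5%, 22.4% and 14.0%). In HC cultures at 12 h the median gene itself was lower than at 0 h (log2 change −0.52), and relative to it 6 members rather than 3 were called higher and 11 lower (51.5% of all genes in either direction). The median log2 change of the members at 24 h was −1.07 in VLC cultures and −1.01 in HC cultures, where the median over all genes tested was 0.09 and 0.01. Since the 0 h libraries are common to both arms, the similarity of these counts is no second measurement.

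These 6 leading members were each called lower than at 0 h in both arms at 24 h. They were picked by their high levels in those 0 h libraries, a choice that favours a fall. In VLC cultures g7957 fell by 3.47 ± 0.16 log2 units (SE), with 82.5 and 93.9 FPKM there against 932 and 1039 FPKM at 0 h, and in HC cultures it had 140 and 136 FPKM. For g7956 the levels at 24 h were 184 and 201 FPKM in VLC cultures and 331 and 321 FPKM in HC cultures, against 1442 and 1549 FPKM at 0 h. The delta-6 desaturase g4033 reached its lowest mean, 88.3 FPKM, in VLC cultures at 12 h, and g9499 reached its lowest, 64.2 FPKM, in the same group. In none of these 4 genes did any library from 3 h onward reach the level of either 0 h library. The fall of HC cultures at 3 h is the least certain of these counts, because the 2 HC libraries at 3 h differed more than any other pair (median difference between replicates 0.24 log2 units, against 0.06 to 0.11 in the other 8 groups). For example, g7957 had 566 and 357 FPKM there. Without the second of them, 3 members rather than 5 were called lower in HC cultures at 3 h.

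**Figure D1:**
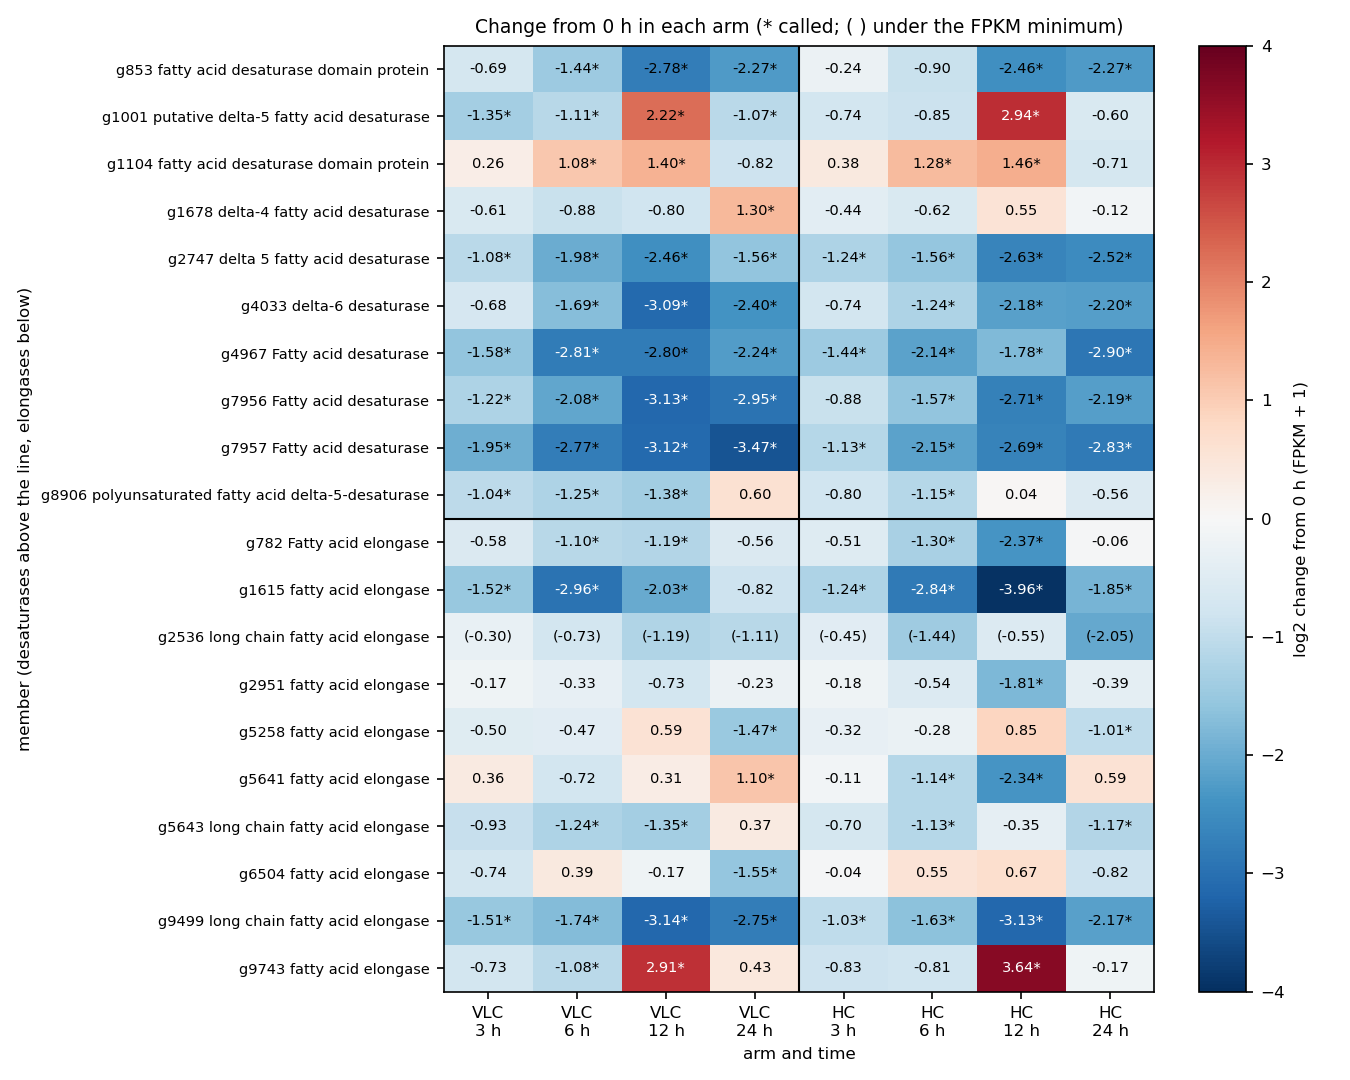
Log2 change of FPKM + 1 from 0 h for the 20 members (rows) in VLC cultures (left 4 columns) and HC cultures (right 4 columns) at 3, 6, 12 and 24 h, each from 2 libraries against the shared 2 libraries of 0 h; an asterisk marks a call and parentheses a mean under 10 FPKM in both groups. Blue dominates both arms, with g1001, g1104 and g9743 called higher at 12 h in both.

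A smaller set of 5 genes had its highest mean in HC cultures at 12 h, and all of these but g6504 were highest at 12 h in VLC cultures as well. They were picked out by that pattern, after their values were seen. The elongase g9743 had 252 and 256 FPKM in VLC cultures and 440 and 405 FPKM in HC cultures at 12 h, and no library of any other group exceeded 46.9 FPKM. The putative delta-5 desaturase g1001 had 76.7 and 91.5 FPKM in VLC cultures and 134 and 142 FPKM in HC cultures at 12 h, and 18.2 FPKM or less in every other library. Both arms thus stood far above the remaining times for this pair. Relative to 6 h, g9743 was called higher in VLC cultures (log2 change 3.99 ± 0.09, SE) and in HC cultures (4.45 ± 0.09), and g1001 likewise (3.34 ± 0.16 in VLC and 3.79 ± 0.16 in HC). By 24 h both were called lower than at 12 h in each arm. Of all members, 4 of 19 were called higher and 4 lower at 12 h against 6 h in VLC cultures (19.0% and 11.0% of all genes tested), and 5 of 18 higher and 7 lower in HC cultures (15.2% and 36.9%). The HC counts depend on the scale, since the median gene there changed by −0.67 from 6 to 12 h. Relative to it, 7 members were called higher and none lower in HC cultures (36.4% of all genes in either direction). At unadjusted p below 0.05, 8 members were lower on that scale in HC cultures (40.1% of all genes), none by 2-fold. In VLC cultures 2 were called higher and 4 lower relative to the median gene (30% of all genes in either direction). At 24 h against 12 h, 4 of 19 were called higher and 5 lower in VLC cultures (14.9% and 20.5%), and 4 of 19 higher and 6 lower in HC cultures (40.7% and 20.3%), where relative to the median gene 3 were higher and 9 lower (49.2% of all genes in either direction).

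The elongase g5258 and the desaturase domain protein g1104 also had their highest means at 12 h in both arms. For g5258 these were 194 FPKM in VLC cultures and 232 FPKM in HC cultures, and for g1104 they were 232 FPKM in VLC cultures and 242 FPKM in HC cultures. Unlike the others, g1104 was already called higher than 0 h at 6 h in either arm (log2 change 1.08 in VLC and 1.28 in HC cultures). The elongase g6504 peaked at 12 h in HC cultures only, with 164 and 163 FPKM, where VLC cultures at 12 h had 93.6 and 88.8 FPKM and had been higher at 6 h (138 and 130 FPKM). A lower mean in VLC than in HC cultures at 12 h is part of how these 5 genes were picked, and none of the differences reached 2-fold on the deposited scale.

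**Figure D2:**
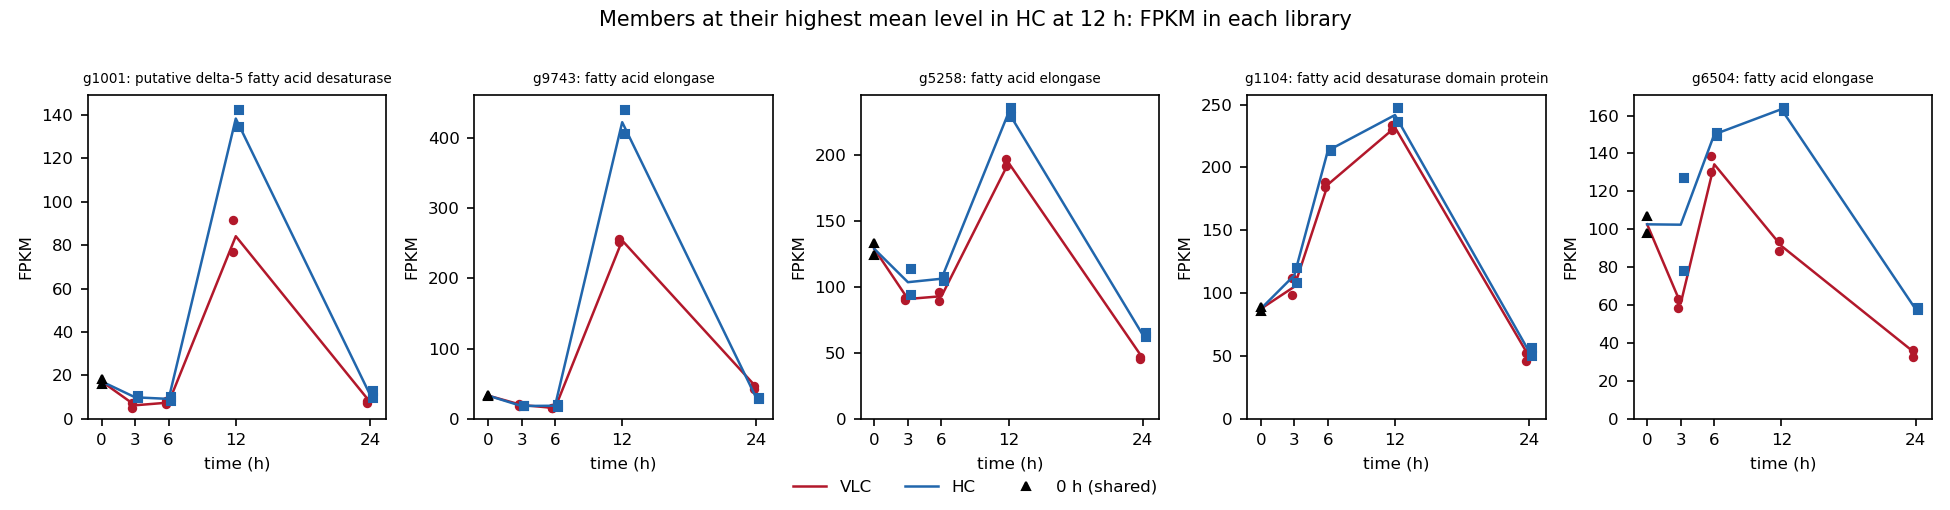
FPKM (vertical axis, from 0) against time in h for the 5 members with their highest mean in HC cultures at 12 h; red circles are VLC libraries, blue squares HC libraries and black triangles the shared 0 h libraries, with lines through the means of 2. In g9743 and g1001 the 12 h libraries of both arms, up to 440 and 142 FPKM, stand clear of all other times.

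The comparison of VLC with HC cultures at the same time asks which members responded to the CO2 level itself. At 3 h none of 18 members tested was called (0.969% of all genes tested were), and at 6 h none of 17 (2.09%). At unadjusted p below 0.05, 7 members passed at 3 h (31.9% of all genes) and 11 at 6 h (26.3%). Of these, 6 were lower in VLC cultures at 3 h (16.9% of all genes) and 10 at 6 h (13.7%), all by less than 2-fold. Both groups' libraries did not overlap for 12 of 18 members at 3 h (47.4% of all genes) and for 15 of 17 at 6 h (69.6%). All 9 desaturases tested at 6 h had a log2 change below 0, between −0.10 and −0.67, where 61.3% of all genes tested were below 0; without the first VLC library at 6 h g8906 was at 0.02. Without the second HC library at 3 h, g7957 and g6504 were called lower in VLC cultures at 3 h (log2 change −1.15 and −1.05), so that the count of 0 at 3 h rests on that library.

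At 12 h the members called higher in VLC cultures were elongases and those called lower were desaturases. Elongases g5641, g1615, g782 and g2951 were called higher in VLC cultures (4 of 19 members, where 27.6% of all genes tested were), and desaturases g8906, g1678 and g4967 were called lower (3 of 19, against 4.36%). The median log2 change was −0.42 over the 19 members and 0.59 over all 8409 genes tested, so the typical gene was higher in VLC cultures at this time while the typical member was lower. Below 0 were 14 of the 19 members, compared with 22.2% of all genes. These were 9 of 10 desaturases and 5 of 9 elongases, so the split of the calls by class did not hold for all elongases. Libraries of both groups did not overlap for 18 of the 19 members, which held for 91.8% of all genes.

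This shift of the median gene bears on every 12 h value. It lay within 0.1 log2 units of 0 at 3, 6 and 24 h. Against 0 h, the log2 change of the median gene at 12 h was 0.15 in VLC cultures and −0.52 in HC cultures. Relative to the median gene, 2 members were called higher in VLC cultures at 12 h (g5641 and g1615) and 10 lower, namely the desaturases g1001, g1678, g4033, g4967, g7956, g7957 and g8906 and the elongases g5643, g6504 and g9743, while 20.3% of all genes were called in either direction. The elongases g782 (0.60) and g2951 (0.49) were then above the median gene by less than 2-fold. FPKM are shares of a library, so whether the typical transcript or the rest of the pool moved cannot be told apart.

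**Figure D3:**
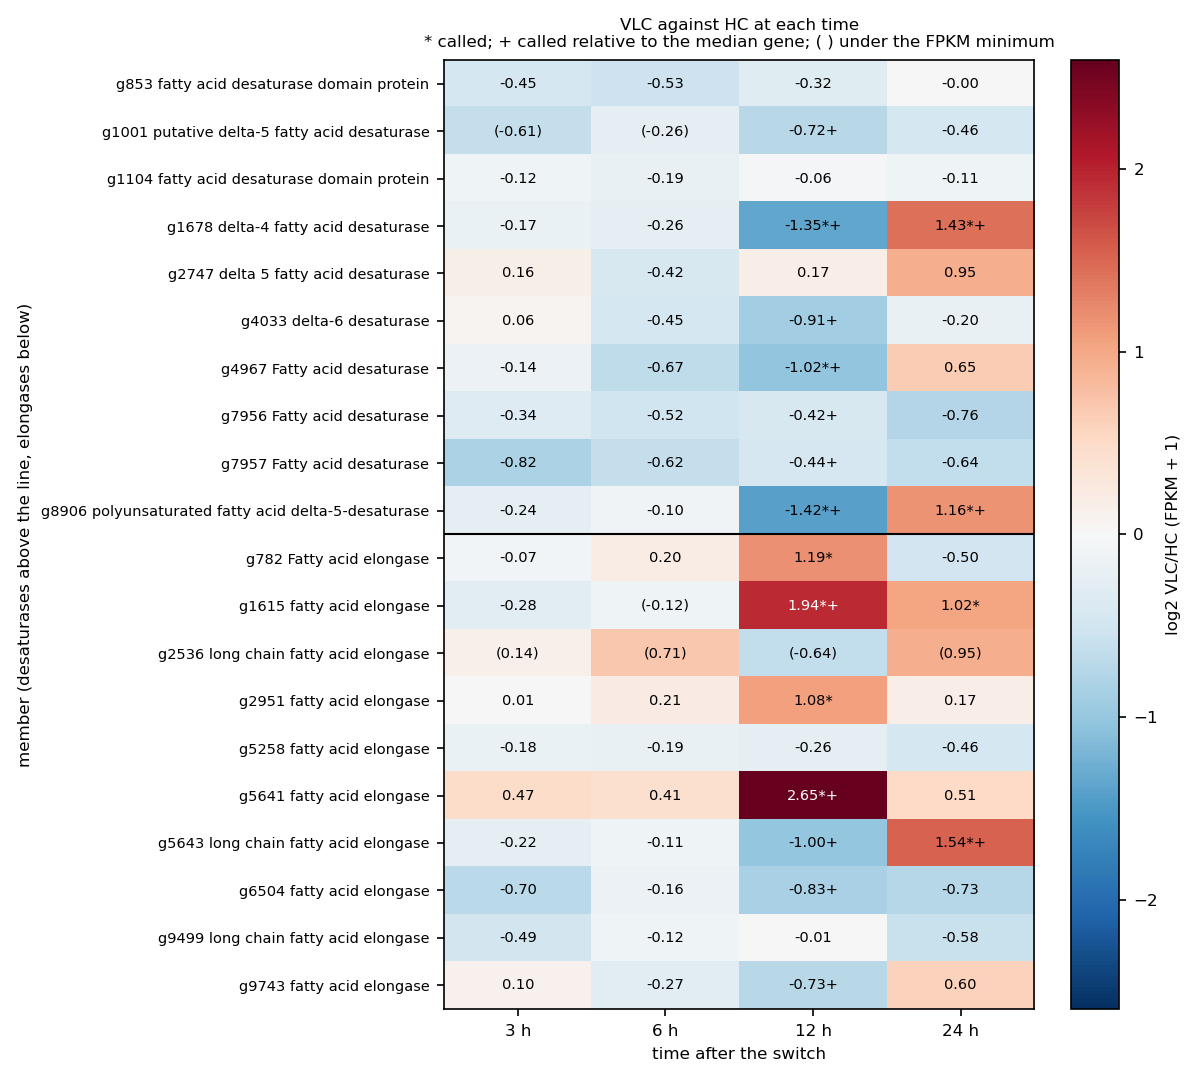
Log2 ratio of VLC over HC on FPKM + 1 for the 20 members (rows, desaturases above the line) at 3, 6, 12 and 24 h (columns), 2 libraries a group; an asterisk marks a call, a plus sign a call relative to the median gene and parentheses a mean under 10 FPKM in both groups. Calls stand only at 12 and 24 h, from −1.42 in g8906 to 2.65 in g5641, both at 12 h.

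The elongase g5641 had the widest difference of the family. At 12 h it had 50.4 and 47.2 FPKM in VLC cultures, against 6.68 and 7.14 FPKM in HC cultures. The groups lay far apart, the mean of VLC being 7.07 times that of HC (log2 change 2.65 ± 0.10, SE; adjusted p = 8.4e-11 by limma). HC cultures at 12 h were lower than at 6 h (log2 change −1.21 ± 0.10, or −0.54 relative to the median gene), whereas the log2 change of VLC cultures between the same times was 1.04 ± 0.10. This last value is at the limit of a call: it was 0.96 relative to the median gene, 0.89 without the first VLC library of 6 h and 0.99 without that of 12 h, none of them called. At 24 h g5641 had 84.1 and 85.5 FPKM in VLC cultures and 61.3 and 57.3 FPKM in HC cultures, a difference without overlap but under 2-fold (0.51 ± 0.10). Its locus, scaffold00182 bases 775945 to 778031, lies 4 bases from that of g5640, a conserved unknown protein, and the libraries do not keep strand. This neighbour had 51.9 and 53.8 FPKM in VLC cultures and 37.8 and 37.8 FPKM in HC cultures at 12 h.

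At other times g5641 stood between these extremes. It had 40.5 and 37.8 FPKM at 0 h. At 3 h there were 50.3 and 50.6 FPKM in VLC cultures against 35.2 and 37.1 FPKM in HC cultures, and at 6 h 21.0 and 25.9 FPKM in VLC cultures against 16.3 and 18.3 FPKM in HC cultures. In the order of its means, VLC at 24 h was highest, followed by HC at 24 h, VLC at 3 h, VLC at 12 h, 0 h, HC at 3 h, VLC at 6 h, HC at 6 h and HC at 12 h. Of these neighbours, VLC at 3 h and VLC at 12 h were the one pair whose libraries overlapped.

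The elongase g1615 was the other member called higher on either scale at 12 h. It had 12.0 and 9.72 FPKM in VLC cultures, against 1.69 and 2.52 FPKM in HC cultures. VLC libraries thus lay well above HC libraries, though at a low level (ratio of means 5.15, log2 change 1.94 ± 0.14, SE, adjusted p = 2.1e-08). Without the first VLC library at 12 h its mean there fell under the FPKM minimum of 10 and it was no longer tested. At 24 h it had 26.2 and 26.2 FPKM in VLC cultures against 12.2 and 12.6 FPKM in HC cultures, which was called (1.02 ± 0.14, adjusted p = 1.9e-05) but was 0.93 relative to the median gene. All these levels were below the 47.1 and 47.0 FPKM of 0 h. A gene 8 bases away, the carotenoid oxygenase g1616, had 7.42 and 5.29 FPKM in VLC cultures and 2.26 and 1.51 FPKM in HC cultures at 12 h, and what fragments of one locus add to the other was not tested.

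Elongases g782 and g2951 had a milder form of the same pattern, with a low at 12 h in HC cultures. For g782 the 12 h libraries had 43.1 and 41.6 FPKM in VLC cultures, against 17.3 and 18.8 FPKM in HC cultures (log2 change 1.19 ± 0.11, SE; adjusted p = 3.4e-07). At 24 h the order was turned, with 65.9 and 65.7 FPKM in VLC cultures and 91.3 and 95.8 FPKM in HC cultures, a difference of −0.50 ± 0.11 that was not called. For g2951 the 12 h libraries had 27.4 and 27.9 FPKM in VLC cultures, against 11.5 and 13.8 FPKM in HC cultures (1.08 ± 0.10, adjusted p = 3.2e-07). Leaving out the first HC library at 12 h put g2951 at 0.96, under the 2-fold limit. At 24 h g2951 had 41.9 and 37.6 FPKM in VLC cultures and 35.0 and 35.5 FPKM in HC cultures, and this difference was not called.

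Desaturases g1678 and g8906 and the elongase g5643 shared a course that crossed between the arms. The delta-4 fatty acid desaturase g1678 (scaffold00043, bases 460863 to 464190) had 51.5 and 56.5 FPKM in VLC cultures at 12 h, against 142 and 135 FPKM in HC cultures (log2 change −1.35 ± 0.10, SE; adjusted p = 2.1e-08). At 24 h it had 251 and 219 FPKM in VLC cultures, against 83.9 and 89.6 FPKM in HC cultures (1.43 ± 0.10, adjusted p = 1.7e-08). VLC was thus the lower arm at 12 h and the higher arm at 24 h, each time with a gap wider than the spread within either pair. The ratio of mean FPKM was 0.389 at 12 h and 2.71 at 24 h.

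A pair of successive changes made up this crossing of g1678. HC cultures rose at 12 h to 1.17 ± 0.10 log2 units above their 6 h level, while VLC cultures differed by 0.09 ± 0.10. VLC cultures then rose at 24 h to 2.10 ± 0.10 log2 units above 12 h, and the log2 change of HC cultures between 12 and 24 h was −0.67 ± 0.10, under 2-fold but −1.34 relative to the median gene. Earlier levels were close together, with 100.4 and 88.9 FPKM at 0 h, 60.1 and 63.0 FPKM in VLC and 75.2 and 64.4 FPKM in HC cultures at 3 h, and 48.0 and 53.7 FPKM in VLC and 60.3 and 61.6 FPKM in HC cultures at 6 h. The order of the means was VLC at 24 h, HC at 12 h, 0 h, HC at 24 h, HC at 3 h, VLC at 3 h, HC at 6 h, VLC at 12 h and VLC at 6 h. Neighbours in that order whose libraries overlapped were 0 h and HC at 24 h, VLC at 3 h and HC at 6 h, and VLC at 12 h and VLC at 6 h. Against 0 h, g1678 was called higher in VLC cultures at 24 h (1.30 ± 0.10) and, relative to the median gene alone, in HC cultures at 12 h (1.07).

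The polyunsaturated fatty acid delta-5-desaturase g8906 had the same course at a lower level. At 12 h it had 24.8 and 28.9 FPKM in VLC cultures, against 71.5 and 75.1 FPKM in HC cultures (log2 change −1.42 ± 0.14, SE; adjusted p = 3.7e-07). At 24 h it had 122 and 97.7 FPKM in VLC cultures, against 48.7 and 47.7 FPKM in HC cultures (1.16 ± 0.14, adjusted p = 4.7e-06). Again neither pair overlapped, and the arm that was higher differed between the times. At 0 h the gene had 74.0 and 69.0 FPKM, and the remaining libraries of 3 and 6 h lay between 27.1 and 47.6 FPKM.

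The long chain fatty acid elongase g5643 was the elongase with this course. It had 45.7 and 53.7 FPKM in VLC cultures at 12 h, against 100.1 and 100.1 FPKM in HC cultures. The ratio of means was 0.497, but the log2 change on the scale with the pseudocount fell just short of the 2-fold limit and the gene was not called there, while relative to the median gene it was called (−1.59 ± 0.14, SE), and so it was on the deposited scale without the second VLC library (−1.11). At 24 h it had 188 and 145 FPKM in VLC cultures, against 58.2 and 54.4 FPKM in HC cultures (1.54 ± 0.14, adjusted p = 3.1e-07), the widest difference of any member tested at 24 h. The 0 h libraries had 134 and 122 FPKM, so VLC cultures at 24 h were above the starting level by 0.37 ± 0.14 log2 units, which is under 2-fold. On scaffold00182 this gene lies 1195 bases from g5641 with no gene of the tables between them, yet the log2 group means of the pair had a Pearson r of 0.13 over the 9 groups.

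The desaturase g4967 (scaffold00145, bases 371852 to 374531) combined the general fall from 0 h with a crossing of the arms. It had 792 and 879 FPKM at 0 h. At 3 h there were 295 and 261 FPKM in VLC cultures against 317 and 297 FPKM in HC cultures, and at 6 h 133 and 105 FPKM in VLC cultures against 188 and 188 FPKM in HC cultures. These libraries were all far below 0 h. The VLC mean was the lower at both times, but the difference at 3 h was small (log2 change −0.14) and neither was called.

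At 12 h g4967 had 126 and 113 FPKM in VLC cultures, against 245 and 239 FPKM in HC cultures (log2 change −1.02 ± 0.11, SE; adjusted p = 1.6e-06). The pairs did not overlap, but the size is at the limit of a call: it was −0.94 without the second VLC library at 12 h and −0.999 without the first HC library, and neither was called. At 24 h it had 159 and 194 FPKM in VLC cultures, against 113 and 109 FPKM in HC cultures (0.65 ± 0.11, not called). In the order of means, 0 h was followed by HC at 3 h, VLC at 3 h, HC at 12 h, HC at 6 h, VLC at 24 h, VLC at 12 h, VLC at 6 h and HC at 24 h. Libraries overlapped between HC at 6 h and VLC at 24 h, between VLC at 12 h and VLC at 6 h, and between VLC at 6 h and HC at 24 h.

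**Figure D4:**
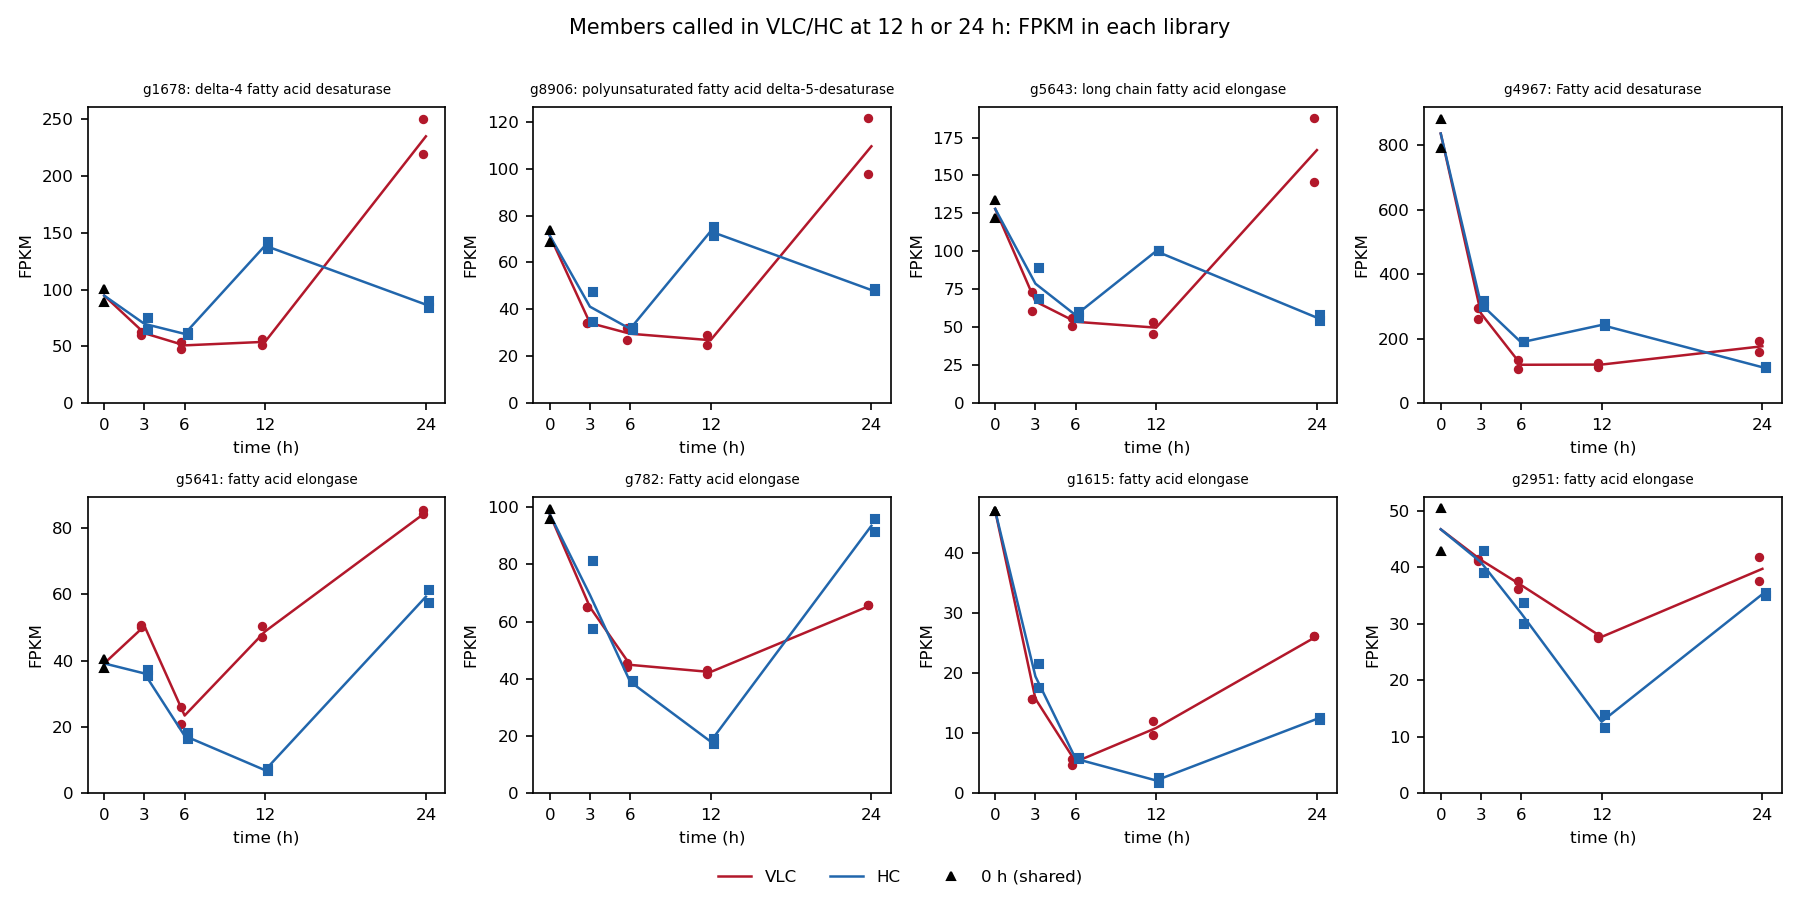
FPKM (vertical axis, from 0) against time in h for the 8 members called between VLC and HC at 12 or 24 h; red circles are VLC libraries, blue squares HC libraries and black triangles the shared 0 h libraries, with lines through the means of 2. In g1678, g8906, g5643, g4967 and, in the other direction, g782 the red and blue lines cross between 12 and 24 h. In g5641 the HC libraries dip to 6.68 and 7.14 FPKM at 12 h.

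At 24 h, 4 of 19 members were called higher in VLC cultures, g5643, g1678, g8906 and g1615 (11.2% of all genes tested), and none lower (5.95%). At unadjusted p below 0.05, 8 members were higher (38.3% of all genes) and 7 lower (29.9%), the lower ones all by less than 2-fold. The median log2 change was −0.004 over the members and 0.09 over all genes, and libraries of both groups did not overlap for 17 of 19 members (89.5% of all genes). Just under the limit was the delta 5 desaturase g2747, with 212 and 239 FPKM in VLC cultures against 116 and 116 FPKM in HC cultures (0.95 ± 0.09, SE). Lower in VLC cultures by less than 2-fold were g7956 (−0.76 ± 0.09), g6504 (−0.73 ± 0.15), g7957 (−0.64 ± 0.16) and g9499 (−0.58 ± 0.08).

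Whether the ratio of VLC to HC itself changed between successive times was tested by contrasts of the ratios. From 3 to 6 h, 0 of 18 members were called (1.35% of all genes), and 6 passed an unadjusted p below 0.05, as did 17.2% of all genes. From 6 to 12 h, the ratio became higher for g5641 (2.24 ± 0.14 log2 units, SE) and g1615 (2.06 ± 0.20), 2 of 19 members where 26.4% of all genes were called, and lower for g1678 (−1.09 ± 0.14) and g8906 (−1.32 ± 0.19), 2 of 19 where 4.01% were. From 12 to 24 h, the ratio became higher for 5 of 19 members, g1678, g8906, g5643, g4967 and g9743 (6.14% of all genes), and lower for g5641 and g782 (25.3%).

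The crossing thus held as a difference between times. The ratio of g1678 was 2.77 ± 0.14 log2 units higher at 24 h than at 12 h (adjusted p = 7.1e-09), that of g8906 2.58 ± 0.19 (adjusted p = 1e-07), and that of g5643 2.54 ± 0.20 (adjusted p = 1.3e-07). For g4967 the difference was 1.67 ± 0.16 and for the elongase g9743 it was 1.33 ± 0.13. The order of the arms reversed in g9743 too, with means of 254 FPKM in VLC and 422 FPKM in HC cultures at 12 h. At 24 h its means were 44.7 FPKM in VLC and 29.1 FPKM in HC cultures. All 5 remained called relative to the median gene, as did g5641 and g782, and on that scale g2747 and g4033 were called higher as well.

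**Figure D5:**
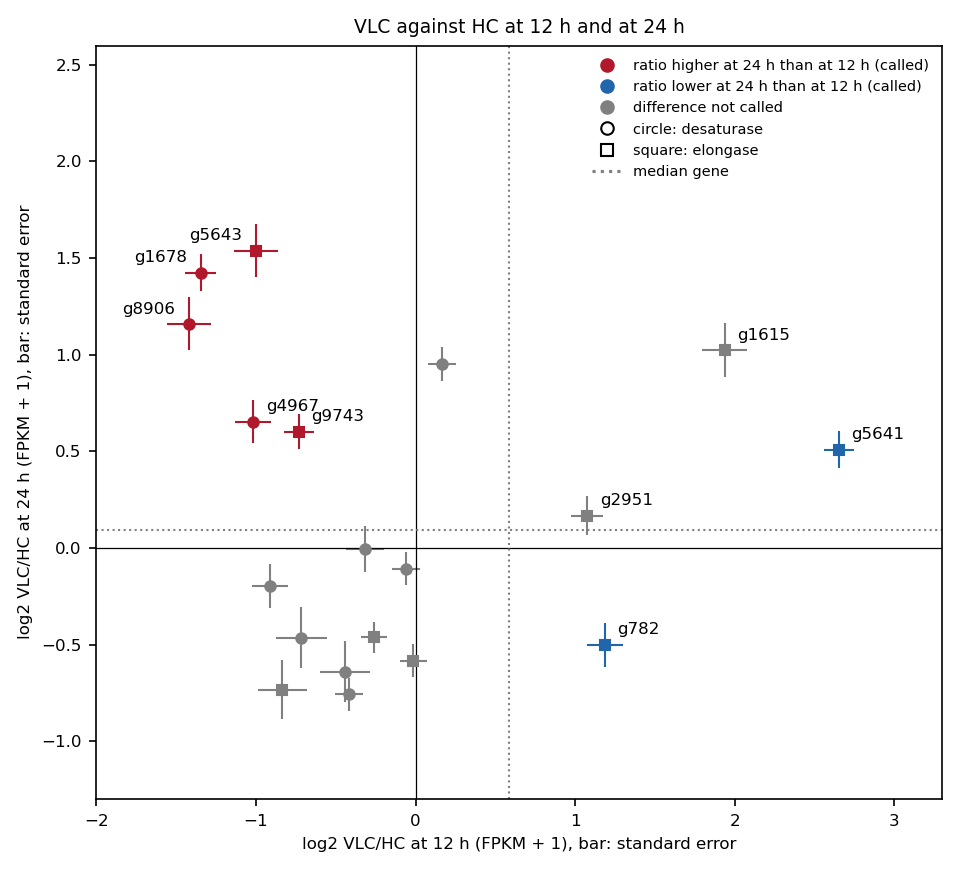
Log2 ratio of VLC over HC at 12 h (horizontal) against that at 24 h (vertical) on FPKM + 1, 1 point a member tested at both times (19), with standard errors as bars; circles are desaturases, squares elongases, red and blue mark a called change of the ratio between the times, and dotted lines mark the median gene (0.59 and 0.09). The 5 members with a called rise of the ratio lie at the upper left, and g5641 and g782 lie at the right.

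Members were not of one profile. Over the 190 pairs of members, the Pearson r of log2 group means over the 9 groups ran from −0.88 (g5641 with g6504) to 0.98 (g7956 with g9499), with a median of 0.14. These values share libraries and the common fall from 0 h and are given as a description. Members g853, g4033, g7956 and g9499 were alike, with r of 0.97 for g853 with g4033 and 0.97 for g4033 with g7956. The set has no sharp edge, as g7957 had r of 0.905 and g2747 of 0.87 with g4033. Delta-4 g1678 and delta-5 g8906 had r of 0.96, g8906 and the elongase g5643 had 0.93, and g1678 and g5643 had 0.87. The 12 h genes g1001 and g9743 had r of 0.96. Desaturases g7956 and g7957, which lie 55 bases apart on scaffold00271, had r of 0.96, and their fragments may in part be those of the neighbour, since the libraries do not keep strand.

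Outside the family, the annotated genes with the profiles most like that of g1678, among 9264 genes with a mean of 10 FPKM or more in some group, were g7445 (WD repeat, SAM and U-box domain-containing protein 1, r = 0.96) and g8628 (a putative cytochrome P450, r = 0.94), beside g8906 of the family. For g4967 they were g25 (a mitochondrial substrate carrier family protein, r = 0.96), g7236 (r = 0.96) and g6380 (r = 0.95), both alpha/beta hydrolase fold proteins. For g5641 they were g4585 (a mitochondrial carrier-like protein, r = 0.99), g8880 (a cytochrome P450, r = 0.98) and g5818 (a type 11 methyltransferase, r = 0.98). Likeness was far more common for g5641, for which 344 genes had r above 0.9 over the 9 groups, than for g1678 with 13 and g4967 with 12.

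Genes that work beside the family were taken from annotation lists. Enzymes of fatty acid synthesis make the chains that the family acts on, and which of those annotated here act in the plastid was not tested. Of 15 such genes, 8 were called higher in VLC cultures at 12 h and none lower (27.6% and 4.36% of all genes). Relative to the median gene 5 were higher and 2 lower (20.3% of all genes in either direction). None was called higher and 1 lower at 24 h (11.2% and 5.95% of all genes). Acetyl-CoA carboxylase, which makes the malonyl-CoA for chain growth, was among them at 12 h: g4840 averaged 384 FPKM in VLC cultures and 71.8 FPKM in HC cultures (log2 change 2.40 ± 0.10, SE), and g7511 averaged 95.0 and 23.4 FPKM in VLC and HC cultures (1.98 ± 0.11). The enoyl-ACP reductase g5253, which catalyses the last step of each round, had 1.87 ± 0.09. Called lower at 24 h was the 3-oxoacyl-ACP synthase g1093 (−1.47 ± 0.11).

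The list of other elongation genes held 4, but g9361 among them is an acyl-CoA synthetase by annotation. At 12 h 2 of the 4 were called higher in VLC cultures on either scale (27.6% of all genes as deposited). They were the 3-ketoacyl-CoA synthase g7804, the plant type of condensing enzyme, at 52.3 FPKM in VLC and 9.02 FPKM in HC cultures (log2 change 2.41 ± 0.14, SE), and g3567, predicted as an elongation protein of very long chain fatty acids, at 30.2 FPKM in VLC and 8.92 FPKM in HC cultures (1.66 ± 0.19). At 24 h 1 of the 4 was called higher (11.2% of all genes), and this was g9361, the predicted very long-chain acyl-CoA synthetase (1.19 ± 0.07). At 12 h g7804 and g3567 were thus higher in VLC cultures, as the median gene was (log2 change 0.59). Of the 9 elongases of the family tested then, 4 were called higher and 5 were below 0.

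Of 7 other desaturases, 3 were called higher in VLC cultures at 12 h (27.6% of all genes) and 2 at 24 h (11.2%). None was called lower at either time. The 3 at 12 h are carotenoid enzymes by annotation, phytoene desaturase g2675 (log2 change 1.95 ± 0.08, SE), zeta-carotene desaturase g6373 (2.04 ± 0.08) and beta-carotene desaturase g5777 (1.12 ± 0.17, which was 0.53 relative to the median gene). At 24 h g5777 was called again (1.77 ± 0.17), together with the stearoyl-CoA desaturase g2635, which introduces the first double bond, at 412 FPKM in VLC and 119 FPKM in HC cultures (1.78 ± 0.09).

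Desaturases draw electrons from cytochrome b5 or ferredoxin, and 29 genes matched these words in their annotation. Some of them are enzymes that use ferredoxin, and which of the 29 serve desaturases was not tested. At 12 h 10 of 29 were called higher in VLC cultures and 1 lower, where 27.6% and 4.36% of all genes tested were. Relative to the median gene 6 were higher and 3 lower (20.3% of all genes in either direction). The counts at 24 h were 4 higher and 2 lower (11.2% and 5.95% of all genes). The ferredoxin g4849 averaged 177 FPKM in VLC and 5.89 FPKM in HC cultures at 12 h (log2 change 4.69 ± 0.14, SE) and was called at 24 h too (3.26 ± 0.14). The ferredoxin component g2456 went the other way, with 11.7 FPKM in VLC and 203.9 FPKM in HC cultures at 12 h (−4.01 ± 0.23) and −3.11 ± 0.23 at 24 h. Cytochrome b561 g2442, which is not a cytochrome b5 and matched by its name only, had 2.63 ± 0.14 at 12 h and 1.46 ± 0.14 at 24 h. Both g4849 and g2456 were also called in VLC against HC cultures at 3 h, when no desaturase or elongase was.

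Acyl-CoA synthetases, which activate free fatty acids before elongation, numbered 12 beside g9361. At 12 h 3 of the 10 tested were called higher in VLC cultures (27.6% of all genes). Relative to the median gene none was higher and 1 was lower (20.3% of all genes in either direction). At 24 h 2 of 9 were called higher (11.2% of all genes). The long chain acyl-CoA synthetase g2396 averaged 39.2 FPKM in VLC cultures and 0.256 FPKM in HC cultures at 24 h (log2 change 5.01 ± 0.16, SE), and g5786 averaged 86.3 FPKM in VLC and 22.9 FPKM in HC cultures (1.87 ± 0.12). The median log2 ratio of mean FPKM at 12 h lay between 0.51 and 1.25 in these 5 lists, where it was −0.42 over the members and 0.61 over all genes tested.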

How the data were processed

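Per the labels and the study's methods, the authors made strand-nonspecific poly(A) libraries, sequenced them as paired ends on an Illumina instrument, aligned reads to the IMET1 genome with TopHat2 (2.0.4 in the submitters' processing notes), left out reads with more than 1 location, and deposited FPKM from Cufflinks (2.0.2 in those notes). The FPKM tables carry no depth, and the aligned reads per library that the study lists were not used here. When low values were read as multiples of the step of 1 fragment, 61.4% came out whole (tolerance 0.1; 20% if spread evenly), too few to recover reads, so no interval from counts is given and no count test was run.

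Here log2(FPKM + 1) of the 9665 genes with a mean of at least 1 FPKM in some group was fitted with limma 3.58.1 (R 4.3.3, variance trend), all 9 groups in 1 model. P-values were adjusted by Benjamini-Hochberg within each comparison over genes with a mean of 10 FPKM or more in either group. A call needed a 2-fold change and an adjusted p up to 0.05. For values relative to the median gene, each comparison was first centred on the median log2 change of its tested genes. The code was tested on simulated data. Tables and figures used Python 3.11.15, pandas 2.3.3 and matplotlib 3.10.9.

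The members and lists were chosen with earlier results of these data known. Values per library were given for g1678, g4967, g5641 and each member called in VLC against HC, and up to 3 called genes with the largest change were named per list. In the profiles, the 3 annotated genes with the highest r were named. Alternatives were a pseudocount of 0.1, an FPKM minimum of 1 or none, the median gene, no variance trend, only the groups compared, a replicate block and leaving out each library. No sequences of these genes were used here.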

Additional observations from a re-analysis of the deposited data

Results flagged for a closer look

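For 11 results the ratio of VLC to HC differed between successive times by the test of the difference itself (limma, log2 units). Between 6 and 12 h the change of the ratio was −1.09 for g1678 (adjusted p = 1.2e-05), −1.32 for g8906 (4.3e-05), 2.06 for g1615 (1.2e-06) and 2.24 for g5641 (4.7e-08). Between 12 and 24 h it was 2.77 for g1678 (7.1e-09), 1.67 for g4967 (9.2e-07), 2.58 for g8906 (1e-07), −1.69 for g782 (8.6e-07), −2.15 for g5641 (2.7e-08), 2.54 for g5643 (1.3e-07) and 1.33 for g9743 (1.1e-06). All 11 were also called relative to the median gene. Every group has 2 libraries, so single libraries were not screened for outlying values.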

How the results depend on the processing

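No called change turned direction under any alternative run. Of 4217 values of single members, 55 took the other sign, none with an adjusted p of 0.05 or less on both sides. Relative to the median gene 19 did, among them g2747 in VLC against HC at 12 h (0.17 as deposited, −0.42 relative) and in HC at 24 h against 12 h (0.11 and −0.56), and with 1 library left out 36 did, among them g6504 in HC at 3 h against 0 h (−0.04, and 0.31 without the second HC library of 3 h). Of 452 counts of members under the alternatives, 440 stayed within 1.5 times. Relative to the median gene, members called in VLC against HC at 12 h were 2 higher and 10 lower, and all genes 744 and 962. On that scale, members called higher were 6 in HC at 12 h against 0 h (2500 of all 8315 genes tested). They were 2 in VLC at 12 h against 6 h (1517 of 8744 genes). Members called lower were 1 in HC at 6 h against 3 h (562 of 8168 genes). None was called lower in HC at 12 h against 6 h (1083 of 8418 genes). For 7 members the ratio became lower from 6 to 12 h, as it did for 931 of 8898 genes. With only the groups compared in the fit, 13 genes were called lower in VLC against HC at 3 h.

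Leaving out each library in turn, members called lower ranged from 0 to 2 in VLC against HC at 3 h and from 3 to 6 in HC at 3 h against 0 h, with 2 and 3 being the counts without the second HC library of 3 h. All genes called lower ranged from 18 to 81 at 3 h (81 without the second HC library and 33 without the first VLC library of 3 h) and from 16 to 33 at 6 h (33 without the first VLC library of 6 h). Members called lower ranged from 1 to 3 in HC at 6 h against 3 h (1 without the first HC library of 6 h). With all libraries, 13 of 18 members were lower in that comparison at unadjusted p below 0.05 (36.2% of all genes). The ratio became higher from 6 to 12 h for 1 to 3 members (1 without the first VLC library of 12 h) and lower from 12 to 24 h for 2 to 4 (4 without the second HC library of 12 h). At a pseudocount of 0.1, g5643 was called lower in VLC at 12 h (−1.01), and without the first VLC library of 24 h g2747 was called higher at 24 h (1.04).

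Replicate numbers showed no pairing of the libraries: the correlation of replicate deviations between groups ran from −0.20 to 0.16 over 36 pairs of groups. This does not make the times independent, since the same columns were sampled repeatedly and the labels do not say which column gave which library. A fit with the replicate number as a block gave the same counts of members in VLC against HC as the fit without it, 4 called higher at 12 h with 3 called lower, and 4 called higher at 24 h with 0 called lower. With 2 libraries a group, the spread is pooled over groups, and changes near 2-fold such as those of g4967, g2951 and g5643 at 12 h lie at the edge of a call.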
